A study of Mus musculus with 6 samples.

Results

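The 10 genes described here are used together as markers of thalamic relay neurons: Tcf7l2, Lef1, Gbx2, Rora, Prkcd, Rgs16, Plekhg1, Ntng1, Synpo2 and Slc17a6. Slc17a6 alone does not tell them from many other subcortical neurons. The 10 genes were picked by symbol from the deposited table of read counts, in which each matched 1 of 21899 listed genes. All 10 passed the filter on low counts and were among the 14956 genes tested. The libraries came from thalamus tissue beneath the hippocampus, cut from a coronal section. The 6 donors were male C57BL/6J wild-type mice, 8 to 10 weeks old when obtained, whose left thalamus had been irradiated with 50 Gy. At 2 weeks each mouse received 2 µL of virus in the thalamus, and its thalamus was dissected 6 weeks after the radiation. The 3 RC mice received AAV9 GFAP104::tdTomato, which carries a red fluorescent protein alone, and the 3 RN mice received AAV9 GFAP104::mND1-tdTomato, which adds mouse NeuroD1, a neurogenic transcription factor. The GFAP104 promoter joins an enhancer to a short form of the astrocyte promoter GFAP. The paper used it to make expression more specific to astrocytes, since AAV9 itself also infects neurons. Which cells expressed the virus was not tested here. Both groups were thus irradiated and injected, and normal mice were not analysed here. The samples were dissected by hand from coronal slices, and each library mixes every cell type of the tissue. Fewer thalamic neurons, less of a transcript per neuron and changes in other cells that express these genes therefore cannot be told apart.

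Neurons of the thalamus relay sensory and motor signals to the cortex and are mostly glutamatergic. Their identity is set up by transcription factors, among them Gbx2 during development and Tcf7l2 and Lef1, which act with beta-catenin at the end of the Wnt pathway, in postmitotic cells. The neurons then keep a set of signalling, adhesion and transport genes that as a whole differs from that of the neighbouring habenula, reticular nucleus, hypothalamus and cortex.

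The question addressed was whether these genes differed between mice given the NeuroD1 virus and mice given the control virus, and how they lay in each mouse. None of the 10 genes was called in RN against RC by edgeR's quasi-likelihood test where a call took an adjusted p below 0.05 together with a change of 2-fold or more. That threshold called 0.0735% of all tested genes, and the same 0.0735% passed without the fold threshold. A replicate block raised the calls from 11 to 22 genes, of which 0 were among the 10. Every estimate lay below 0, where 49.2% of all tested genes did, and the median log2 fold change was -0.56 against 0.0037 over all tested genes. The mice of the groups overlapped in all 10 genes. In 9 of the 10, RC replicate 3 was the highest mouse and RN replicate 3 the lowest, a pattern that 3.64% of the tested genes showed.

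Neurod1, the gene that the RN virus carries, separated the groups. Reads of the mouse's own copy and of the viral copy are counted together. Neurod1 had 4.71, 5.44 and 5.16 CPM (counts scaled to library size by TMM) in RC replicates 1 to 3, and in RN it had 66.8, 91.5 and 50.9 CPM (log2 fold change 3.77, standard error 0.227, edgeR adjusted p = 0.00179). Library totals ran from 16561663 to 18657015 counts, and 3 counts, the number that a 0 allows, came to between 0.161 and 0.181 CPM. Each of the 10 genes lay far above this floor in every mouse, from 178 counts of Gbx2 in RN replicate 3 to 8791 counts of Prkcd in RC replicate 3.

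**Figure D1:**
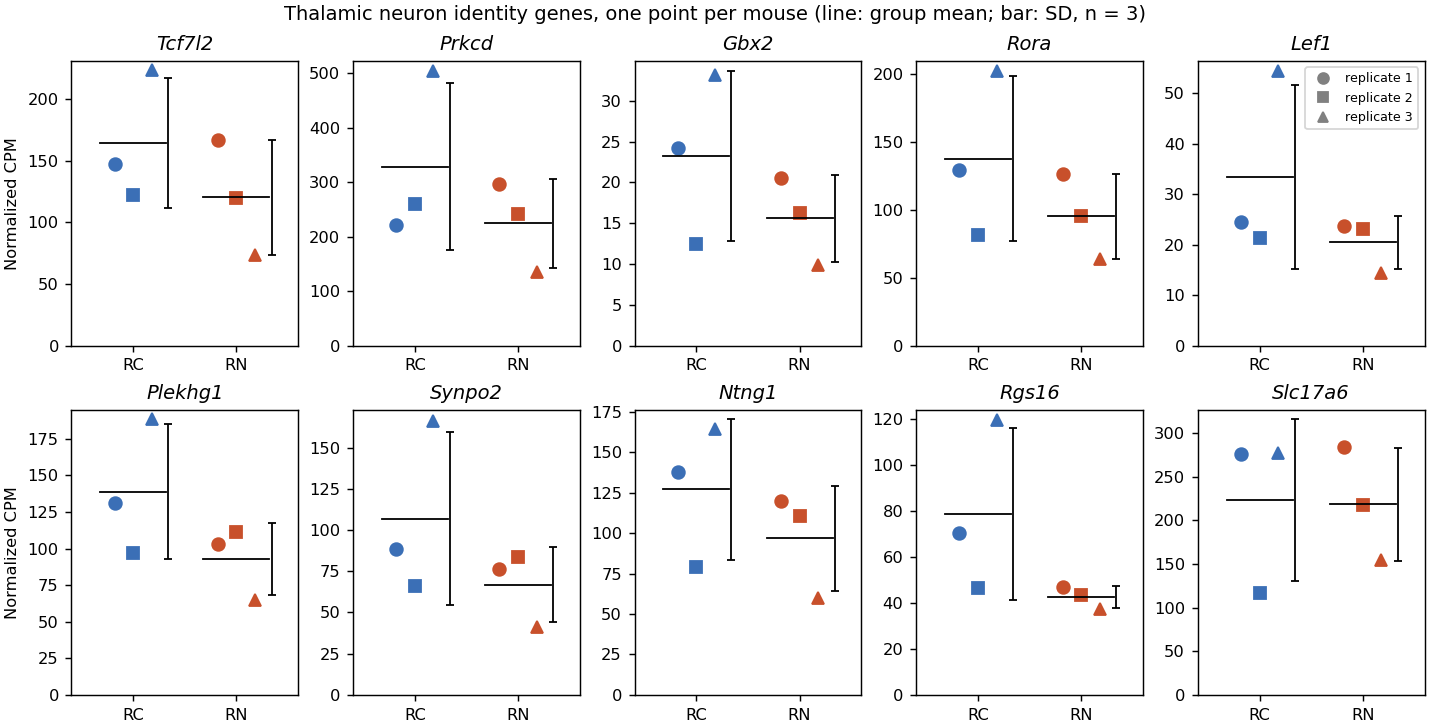
Normalized CPM (vertical axes, linear and starting at 0) of the 10 genes in the RC and RN mice, with 1 point per mouse, a marker shape per replicate number, a line for the group mean and a bar for the SD (n = 3). Within RC replicate 3 is highest and within RN replicate 3 is lowest in all 10 panels, and the groups overlap in each.

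Among the transcription factors, Tcf7l2 (ENSMUSG00000024985), the TCF family member that adult thalamic neurons keep expressing, had 147.5, 122 and 223 CPM in RC replicates 1, 2 and 3, against 167, 120.0 and 73.9 in RN. RN replicate 1 thus lay above RC replicates 1 and 2. The group means were 164 ± 52.7 CPM for RC and 120.25 ± 46.4 CPM for RN (SD, n = 3), with a fitted log2 fold change of -0.45 with a 95% interval from -1.15 to 0.25 (edgeR adjusted p = 0.652).

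Lef1 (ENSMUSG00000027985), the related TCF/LEF factor, was the least abundant of the 10 per kb of exon. Its values were 24.6, 21.4 and 54.4 CPM in RC, against 23.8, 23.2 and 14.4 in RN. Apart from RC replicate 3 and RN replicate 3, the mice lay within 21.4 to 24.6 CPM, so the log2 fold change of -0.71 (95% interval -1.53 to 0.11, edgeR adjusted p = 0.502) rested on 1 high and 1 low library.

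Gbx2 (ENSMUSG00000034486), a homeobox factor that specifies thalamic neurons in the embryo, had 24.2, 12.4 and 33.2 CPM in RC, against 20.6, 16.3 and 9.95 in RN. RC replicate 2 was below RN replicates 1 and 2. Its log2 fold change was -0.58 (95% interval -1.42 to 0.26, edgeR adjusted p = 0.621). An antisense gene, D130058E05Rik, covers the 250 bases before its start in GENCODE M21, and the use of strand in counting is not given in the sources used here.

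Rora (ENSMUSG00000032238), a nuclear receptor of sensory relay neurons, had 129, 81.7 and 203 CPM in RC, against 126, 96.0 and 63.8 in RN. RN replicate 1 came within a few CPM of RC replicate 1, and RC replicate 2 lay below both of the higher RN mice. The log2 fold change was -0.53 (95% interval -1.31 to 0.24, edgeR adjusted p = 0.621). Of all 10 genes, Rora had the profile nearest to the mean of the other 9 over the 6 mice (Pearson r = 0.99, a description over mice that share libraries).

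The stretches of 250 bases before RefSeq's gene starts were searched for words that factors of the set, or NeuroD1, are known to bind, because the 10 genes moved together across mice. All 10 genes had such a window, 16 in all, in the build GRCm38.p6. The words were, on both strands, CTTTGAT, with CTTTGAA, further CTTTGTT, likewise CTTTGTA, for TCF/LEF factors, CAGATG or else CAGCTG for the E-boxes of NeuroD factors, AGGTCA for ROR factors and TAATTA for homeodomain factors, and no word of a set holds another. TCF/LEF words stood in 3 of the 16 windows and in 14.8% of all 32851 windows, E-box words in 4 and in 25.5%, the homeodomain word in 2 and in 4.84%, and the ROR word in 0 and in 14% of all. Shown are the 3 windows with a TCF/LEF word, at alternative starts of Tcf7l2 (chr19:55895071-55895320, plus strand), Lef1 (chr3:131156044-131156293, plus strand) and Prkcd (chr14:30610311-30610560, minus strand), and the window of Slc17a6 (chr7:51624387-51624636, plus strand) that holds both an E-box and the homeodomain word. Each lies inside its own gene with 0 bases in an annotated exon in GENCODE M21. Capitals mark the matched words, each stretch reads from 5′ to 3′ on the gene's strand, and the start follows the last base. A match describes the letters and is not evidence of binding.
Tcf7l2: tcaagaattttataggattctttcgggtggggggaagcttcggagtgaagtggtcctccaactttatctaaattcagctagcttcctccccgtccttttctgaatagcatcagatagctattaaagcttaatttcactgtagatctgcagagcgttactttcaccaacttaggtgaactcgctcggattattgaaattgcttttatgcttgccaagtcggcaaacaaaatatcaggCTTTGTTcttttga
Lef1: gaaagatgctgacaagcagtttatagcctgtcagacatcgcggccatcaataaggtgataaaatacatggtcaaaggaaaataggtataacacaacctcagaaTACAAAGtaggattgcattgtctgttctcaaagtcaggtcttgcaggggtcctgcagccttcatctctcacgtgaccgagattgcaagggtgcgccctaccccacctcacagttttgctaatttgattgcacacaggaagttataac
Prkcd: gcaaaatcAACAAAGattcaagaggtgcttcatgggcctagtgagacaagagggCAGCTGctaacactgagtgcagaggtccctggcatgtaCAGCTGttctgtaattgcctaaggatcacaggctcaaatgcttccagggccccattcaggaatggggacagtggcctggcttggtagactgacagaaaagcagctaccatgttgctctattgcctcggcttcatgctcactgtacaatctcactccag
Slc17a6: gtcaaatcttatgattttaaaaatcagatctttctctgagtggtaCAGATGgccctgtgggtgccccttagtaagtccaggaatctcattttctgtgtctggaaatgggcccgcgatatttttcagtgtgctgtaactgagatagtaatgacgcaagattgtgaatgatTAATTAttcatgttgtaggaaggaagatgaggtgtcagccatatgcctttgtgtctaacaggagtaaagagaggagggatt

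The signalling genes included the transcript with the highest level per kb, Prkcd, and the estimate farthest from 0, that of Rgs16. Prkcd (ENSMUSG00000021948), protein kinase C delta, which marks relay neurons, had 222, 259 and 504 CPM in RC, against 297, 242 and 136 in RN. RC replicate 1 lay below RN replicates 1 and 2, and RC replicate 3 had 3.70 times the level of RN replicate 3. The means were 328 ± 153 CPM for RC and 225 ± 81.6 CPM for RN (SD, n = 3), with a fitted log2 fold change of -0.54 (95% interval -1.36 to 0.27, edgeR adjusted p = 0.633).

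Rgs16 (ENSMUSG00000026475), which speeds the shut-off of G protein signals, had 70.3, 46.6 and 119.8 CPM in RC, against 46.8, 43.4 and 37.6 in RN. Here the overlap was narrow, since RN replicate 1 exceeded only RC replicate 2. The RN mice were close to each other, at 42.6 ± 4.67 CPM, while RC stood at 78.9 ± 37.4 CPM (SD, n = 3). The log2 fold change was -0.89 (standard error 0.297, 95% interval -1.57 to -0.21), with an unadjusted p of 0.0168 in edgeR and an adjusted p of 0.276. Rgs16 was the 1 gene of the 10 at an unadjusted p under 0.05, where 6.33% of the tested genes were lower and 5.44% higher in RN. DESeq2, the tool that the study names, run here with its Wald test, gave Rgs16 an adjusted p of 0.0420 without reaching a fold change of 2, and 3.21% of all tested genes passed an adjusted p of 0.05 in DESeq2. Rgs16 stood at -0.46 on the log2 scale once RC replicate 3 was left out (edgeR adjusted p = 0.439).

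Plekhg1 (ENSMUSG00000040624), an exchange factor for small GTPases, had 131, 97.2 and 188 CPM in RC, against 103, 111 and 64.8 in RN. RC replicate 2 lay below the RN replicates 1 and 2. Its log2 fold change of -0.58 had an interval that just reached 0 (95% interval -1.19 to 0.03, edgeR adjusted p = 0.454).

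The genes of adhesion and cytoskeleton behaved alike. Ntng1 (ENSMUSG00000059857), netrin-G1, a membrane-anchored protein on the axons of thalamocortical neurons, had 138, 79.2 and 164 CPM in RC, against 119.6, 111 and 59.7 in RN. RC replicate 2 was again below RN replicates 1 and 2, and the log2 fold change was -0.39 (95% interval -1.11 to 0.32, edgeR adjusted p = 0.718). Synpo2 (ENSMUSG00000050315), an actin-binding protein, had 88.2, 66.2 and 166 CPM in RC, against 76.1, 83.5 and 41.0 in RN, and RC replicate 3 had 4.06 times the level of RN replicate 3, more than in any other of the 10 genes. The log2 fold change of Synpo2 was -0.68 (95% interval -1.51 to 0.16, edgeR adjusted p = 0.542).

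Slc17a6 (ENSMUSG00000030500) encodes VGLUT2, the transporter that loads glutamate into vesicles in thalamic relay cells and in many other subcortical neurons. Its order of mice was unlike that of the other 9 genes, with 276, 117 and 278 CPM in RC, against 283, 218 and 154 in RN. The highest mouse was RN replicate 1 and the lowest RC replicate 2. The means of 224 ± 92.6 CPM for RC and 218 ± 64.7 CPM for RN (SD, n = 3) gave a log2 fold change of -0.03 (95% interval -0.80 to 0.73, edgeR adjusted p = 0.985). That interval still allows a change of over 1.5 times in either direction.

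**Figure D2:**
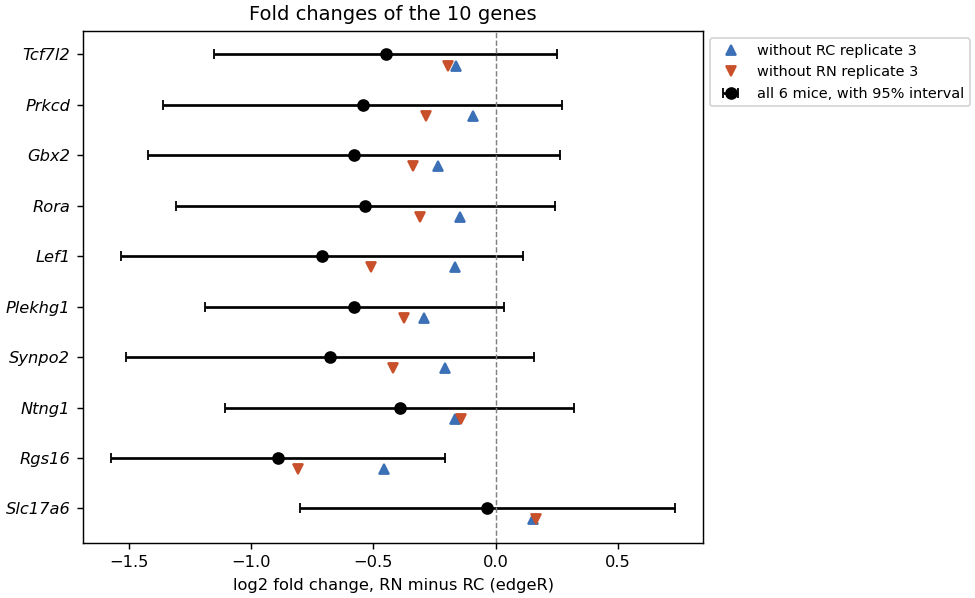
Log2 fold changes of the 10 genes (horizontal axis, RN minus RC, edgeR), with black points and 95% intervals for all 6 mice, blue triangles without RC replicate 3 and orange triangles without RN replicate 3. Black points run from -0.89 for Rgs16 to -0.03 for Slc17a6. Each of the 2 libraries left out moves all 10 estimates upward, which follows from their being the highest RC and the lowest RN mouse.

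Levels can be compared between genes only per length of transcript, here as CPM per kb of exon in GENCODE M21. Over the 6 mice, Prkcd stood at 49.9 ± 22.3 CPM per kb, Slc17a6 at 40.9 ± 13.2 and Rgs16 at 26.0 ± 13.3 (SD, n = 6). Below them came Tcf7l2 at 16.2 ± 5.76 CPM per kb, Ntng1 at 13.6 ± 4.62 and Plekhg1 at 13.3 ± 4.75. The lower end held Gbx2 at 8.93 ± 3.91 CPM per kb, Rora at 8.93 ± 3.77, Synpo2 at 6.64 ± 3.24 and Lef1 at 3.07 ± 1.59. Only the steps from Slc17a6 to Rgs16 and from Synpo2 to Lef1 were wider than the SD of both genes beside them. Prkcd exceeded Slc17a6 in 4 of 6 mice, Ntng1 exceeded Plekhg1 in 3 and Gbx2 exceeded Rora in 2, while each of the other 6 steps kept its order in all 6 mice.

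The spread within the groups was large for these genes. Their SD of log2 CPM within a group lay between 0.45 and 0.63, with a median of 0.58, where the median over all tested genes was 0.18. Between 87.7% and 93.9% of the tested genes had a smaller SD than a given member of the set. Within RC, replicate 3 was highest in all 10 genes, and within RN, replicate 3 was lowest in all 10. The ratio of RC replicate 3 to RN replicate 3 ran from 1.80 for Slc17a6 to 4.06 for Synpo2.

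As a score, the mean of log2 CPM with each gene centred over the 6 mice, the 10 genes stood at 0.21, -0.32 and 0.86 in RC replicates 1, 2 and 3 and at 0.11, -0.08 and -0.77 in RN. Their summed level was 1250.5, 902 and 1934 CPM in RC, against 1263, 1064 and 655 in RN. RC replicate 2 had a lower score and sum than RN replicates 1 and 2, so neither measure separated the groups. Over the 45 pairs of the 10 genes, Pearson's r across the 6 mice ran from 0.48 to 0.99 with a median of 0.92, and it was at least 0.79 in every pair without Slc17a6. These correlations share 6 libraries and are given as a description. For the same reason the 10 estimates below 0 do not count as 10 separate observations.

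RC replicate 3 was the highest RC mouse and RN replicate 3 the lowest RN mouse in all 10 genes. Leaving out either mouse therefore raised the estimates by construction. The median log2 fold change of the 10 genes went from -0.56 to -0.17 without RC replicate 3, and to -0.33 without RN replicate 3. In either fit 9 of the 10 estimates stayed below 0. Without both mice, a choice made after the data were seen, the median was 0.06, and 8 of the 10 estimates lay above 0. Leaving out RC replicate 2, the RC mouse with the lowest score, moved the median the other way, to -0.79. In that fit 7 of the 10 genes were lower at an unadjusted p under 0.05, as were 5.55% of the tested genes, and 7 were lower without overlap, as were 12.7% of the tested genes. Without RN replicate 1 the median was -0.78, with 2 genes lower at an unadjusted p under 0.05 (4.91% of the tested genes) and 2 lower without overlap (12% of the tested genes). In all 6 mice, 8.12% of the tested genes were lower in RN without overlap and 8.18% higher, and 0 of the 10 genes were. In none of these fits was any of the 10 genes called.

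**Figure D3:**
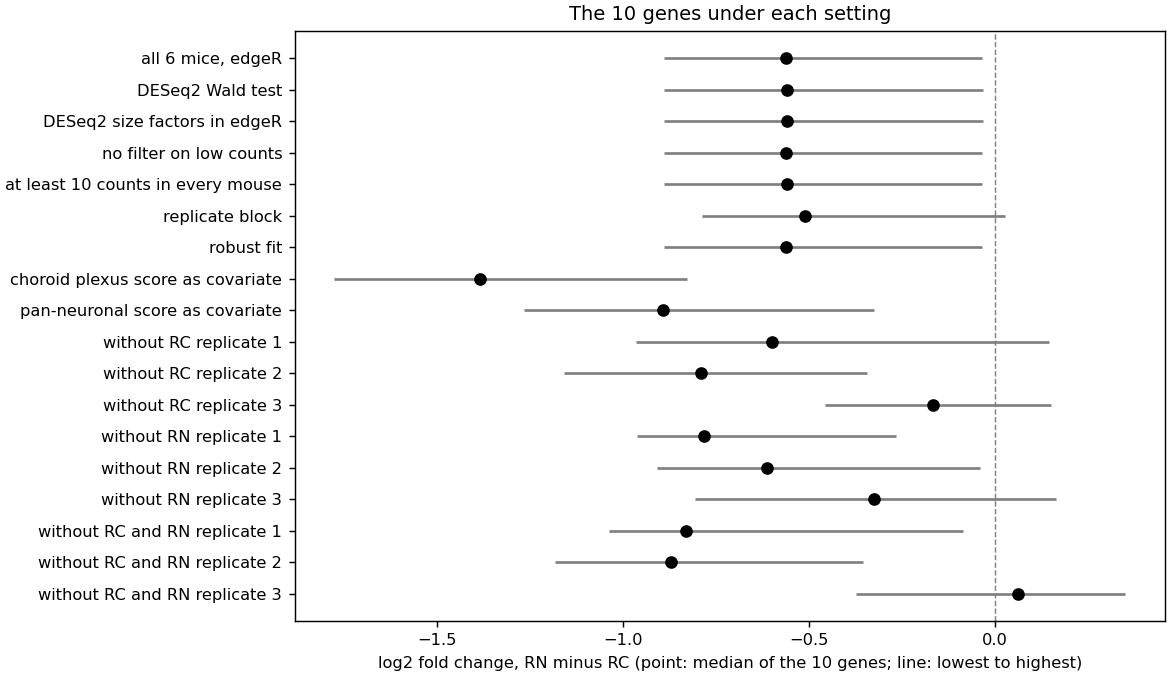
Median (point) and range (line) of the log2 fold changes of the 10 genes (horizontal axis, RN minus RC) under each setting (vertical axis). The median is -0.56 with all 6 mice, -0.17 without RC replicate 3, -0.33 without RN replicate 3 and 0.06 without both, and -1.39 when the choroid plexus score enters the fit.

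Other genes of thalamic neurons, a list of 21, all tested, were compared with the set. Of these, 18 estimates lay below 0, with a median log2 fold change of -0.41. At an unadjusted p under 0.05 in edgeR, 4 genes were lower and 0 higher, where 6.33% of the tested genes were lower and 5.44% higher. An adjusted p of 0.05 was passed by 0 of the 21 in edgeR. RC replicate 3 was the highest mouse in 17 and RN replicate 3 the lowest in 13. Tnnt1, a troponin subunit, was lower in each RN mouse than in each RC mouse, with 38.2, 46.1 and 63.2 CPM in RC, against 31.6, 22.7 and 13.1 in RN (log2 fold change -1.13, edgeR adjusted p = 0.189, DESeq2 adjusted p = 0.00577). Ramp3, a receptor accessory protein, did not overlap between the groups either (log2 fold change -1.03, edgeR adjusted p = 0.305), nor did Scnn1a, a sodium channel subunit (-0.76, adjusted p = 0.208). The remaining gene of this kind was Etv1, a transcription factor, at -0.21 with an edgeR adjusted p of 0.470. These 4 genes were lower without overlap, as were 8.12% of the tested genes. Etv1 falls outside the rule for named genes and was named after its values were seen. So were Calb1 (log2 fold change 0.16), Zfhx3 (0.20) and Zfhx4 (0.20), whose estimates lay above 0. The score of the 21 genes was 0.23, -0.26 and 0.57 in RC and 0.12, -0.18 and -0.49 in RN, the same order of mice within each group as for the 10 genes.

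Relatives of the 10 genes, 25 tested of 28 listed, had a median of -0.14 on the log2 scale, with 17 of them below 0. At an unadjusted p under 0.05, 3 were lower and 1 higher, and 0 passed an adjusted p of 0.05 in edgeR. Rorb, the paralog of Rora, was also among the 21 other thalamic genes and followed the set, with 27.8, 19.8 and 45.5 CPM in RC, against 27.3, 22.3 and 15.0 in RN. Rgs2, a relative of Rgs16, lay the other way, with a log2 fold change of 0.46 (edgeR adjusted p = 0.139) and no overlap. Plekhg3, a relative of Plekhg1, was at -0.49 (edgeR adjusted p = 0.348). The tests of these relatives against the genes of the set were not run.

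The pathway in which Tcf7l2 and Lef1 act was described by 21 other Wnt and TCF genes, of which 20 were tested. The median log2 fold change was -0.09, 12 estimates lay below 0, and at an unadjusted p under 0.05 there were 0 lower and 1 higher in edgeR, with 0 past an adjusted p of 0.05. The higher one was Notum, a secreted Wnt inhibitor that TCF factors switch on (log2 fold change 0.74, edgeR adjusted p = 0.370). Ctnnb1, which encodes beta-catenin itself, had 689, 713 and 719 CPM in RC, against 701, 705 and 667 in RN, and Axin2, a target gene of the pathway, had 26.4, 20.5 and 26.5 CPM in RC, against 25.5, 21.0 and 20.2 in RN. Tcf7l1 (-0.47, adjusted p = 0.482) and Bcl9 (0.23, adjusted p = 0.498) were the other genes with the smallest p in edgeR. The score of this list spanned 0.054 over the 6 mice, against 1.63 for the 10 genes.

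General neuronal genes varied less than the set, with a score that spanned 0.28 over the 6 mice against 1.63. Within RC their order of mice was the same, with replicate 3 highest in 11 of the 15 genes, while within RN replicate 3 was lowest in 6. The 15 genes of this list, all tested, had a median of 0.10 on the log2 scale, 1 estimate below 0, and 0 at an unadjusted p under 0.05 or an adjusted p under 0.05 in edgeR. Rbfox3, which encodes the neuronal antigen NeuN, had 70.3, 83.2 and 82.7 CPM in RC, against 82.8, 72.4 and 93.6 in RN (log2 fold change 0.08, edgeR adjusted p = 0.879). Per 100 CPM of the 15 neuronal genes, the 10 thalamic genes held 18.6, 13.9 and 24.5 CPM in RC, against 16.4, 14.3 and 8.76 in RN. RC replicate 2 again lay below RN replicates 1 and 2 on this measure. With the score of the 15 genes as a covariate, the median log2 fold change of the 10 genes was -0.89, and Rgs16 was called lower at -1.27 (edgeR adjusted p = 0.0406), 1 of 20 calls in that fit, 0.134% of the tested genes. The score was measured after the virus was given, and all but 1 of its 15 genes had an estimate above 0. That call is therefore not read as a loss of Rgs16 per neuron.

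Some markers of other regions and cell types differed in the mice that stood apart. RC replicate 3, the highest mouse in 9 of the 10 genes, had the least hypothalamic RNA, with a sum of 38.2 CPM over 14 hypothalamic genes. The sums were 229 and 134 CPM in RC replicates 1 and 2, and 478, 415 and 309 CPM in RN replicates 1 to 3. Within RN, and between RC replicates 1 and 2, the mouse with the lower sum of the 10 genes also had the lower hypothalamic sum. In RN replicate 3, the lowest mouse in 9 of the 10 genes, 13 markers of the reticular nucleus and prethalamus summed to 1497 CPM, where the other 5 mice had 852 to 1107 CPM. Of that sum, Gad1, Gad2 and Slc32a1, genes of inhibitory neurons in general, held 508, 403 and 167 CPM. Pvalb and Six3, 2 of the 13, were instead highest in RC replicate 3. They had 154 and 32.6 CPM there, against 74.5 and 28.1 CPM in RN replicate 3. The other genes of that list were highest in RN replicate 3. Scores of habenular genes (-0.65 to 0.55) and of cortical and hippocampal genes (-0.52 to 0.52) put neither of these mice at an end of their range, while 7 midbrain and pretectal genes were lowest in RC replicate 3 (-0.76) and next lowest in RN replicate 3 (-0.54). RN replicate 3 was also the lowest in 12 of 12 oligodendrocyte genes. Choroid plexus genes, 12 of 12 tested, summed to 2818, 8550.1 and 336 CPM in RC, against 77.5, 110.1 and 158 in RN, and RC replicate 2, where they were highest, had the lowest score of the 10 genes within RC. Sums of 12 astrocyte genes ran from 6542 to 8250.0 CPM in RC and from 4543 to 5733 CPM in RN. Those of 10 endothelial genes ran from 460 to 550 CPM in RC and from 345 to 436 CPM in RN. No gene of these lists that was tested had a count of 0 in a mouse. The part of tissue outside the thalamus in the spread of the 10 genes was not tested directly. When the choroid plexus score entered the fit, the median of the 10 estimates was -1.39, and Rgs16 was called lower at -1.78 (edgeR adjusted p = 0.0272). Rgs16 was the 1 gene called in that fit, 0.00669% of those tested, and Neurod1, at 3.76, was not called there (edgeR adjusted p = 0.0891). The RC and RN mice did not overlap in that score, so the score and the virus group cannot be told apart.

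**Figure D4:**
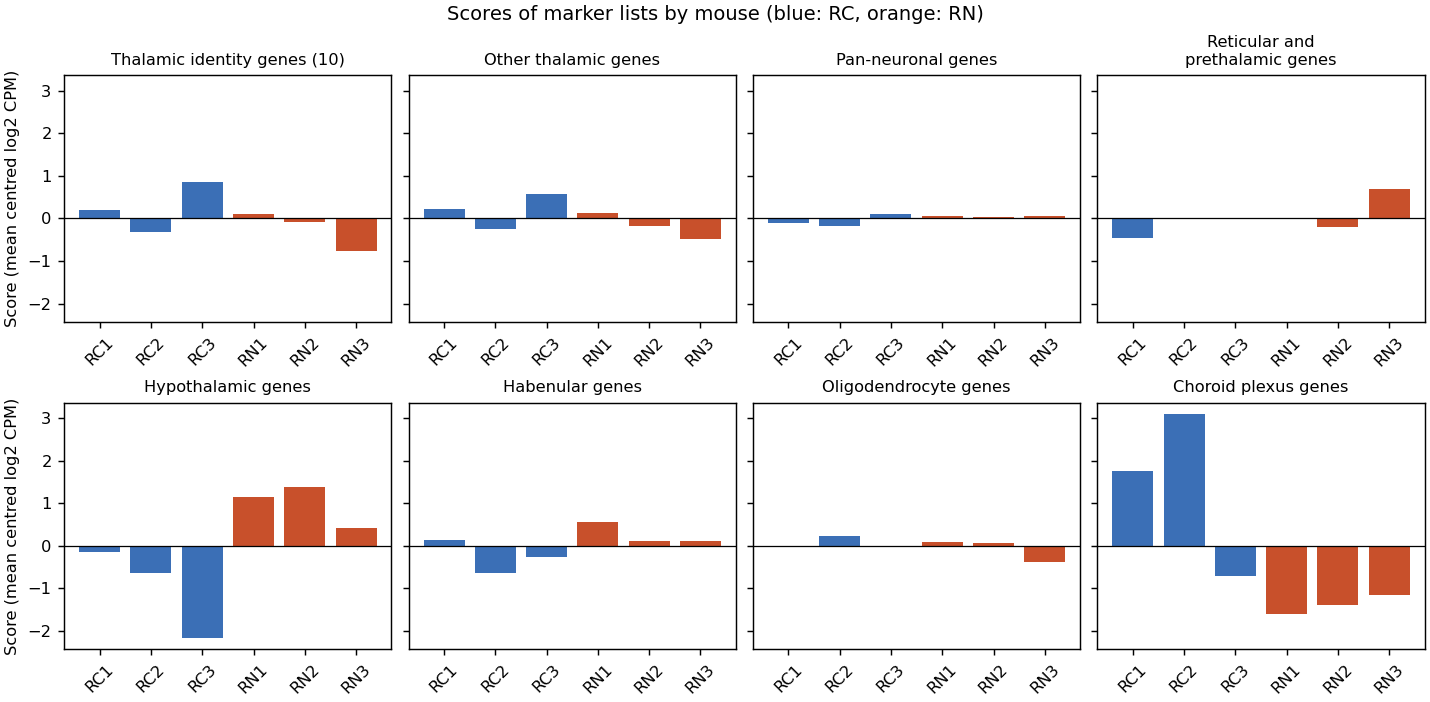
Scores of 8 gene lists (vertical axes, mean centred log2 CPM) in each mouse, with RC in blue and RN in orange. The 10 thalamic genes and the 21 other thalamic genes are highest in RC replicate 3 and lowest in RN replicate 3, general neuronal genes stay within -0.17 to 0.11, and hypothalamic and choroid plexus genes span the widest ranges.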

How the data were processed

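Bulk RNA of thalamus tissue from a coronal section was sequenced from 3 RC and 3 RN mice, and samples were grouped by their labels. The authors deposited raw counts of reads for each gene, all whole numbers. Their submission notes name fastp 0.18.0, FastQC, HISAT2 2.2.4, RSEM 1.2.19 and the build GRCm39 without roles, so the counts may be rounded estimates. The annotation and the use of strand are not given in the sources used here.

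Counts were filtered with filterByExpr (minimum 10), normalized by TMM and fitted with edgeR 4.0.16 (limma 3.58.1, R 4.3.3) as a quasi-likelihood model of group, with Benjamini-Hochberg adjustment over 14956 genes. Calls took an adjusted p below 0.05 together with a change of 2-fold or more. DESeq2 1.42.0, which the study's methods name, was an alternative, along with its size factors, other count filters, a robust fit, a replicate block, 2 covariates and each mouse left out, and pairs of the same number left out (chosen after seeing the data). Log2 CPM used a prior count of 2. On simulated counts of 14969 genes edgeR recovered 86% of 2-fold and 100% of 4-fold changes, with 4.62% of calls false. That simulation gave every gene the same dispersion (biological coefficient of variation 17.4%). The 10 genes spread more, with a median within-group SD of log2 CPM of 0.58 against 0.18 over all tested genes. These recovery rates therefore cannot be carried over to the 10 genes. Precision is limited by 3 mice per group, and the floor of 3 counts covers counting error only, because reads here carry no molecular identifiers. The libraries are separate mice by their labels, so p-values measure the spread between these mice. Every pair of libraries differed by 16.4 to 44.5 times what counting noise gives, as a chi-square over its degrees of freedom, and each was kept as a replicate.

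The genes and lists were chosen with earlier results of these data known. Named were the 10 genes, Neurod1, Rbfox3, up to 3 genes by smallest p in edgeR from each other list, and those most correlated with the 10 genes over the 6 mice (mean log2 CPM of at least 3). A gene named by this rule is not reported here. Where RC and RN mice shared a number, their deviations correlated across genes at 0.173, 0.12 and 0.209 for replicates 1, 2 and 3. The numbers were therefore treated as a possible pairing, though no source names a shared litter or day. RC replicate 1 also correlated with RN replicate 2, at 0.156, above the 0.12 of the mice numbered 2. The main fit used group alone, so its p-values leave such a pairing out. The replicate block, an alternative setting, took it in. Gene lengths came from GENCODE M21 and promoter windows from RefSeq, both on GRCm38, and no coordinates were converted.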

Additional observations from a re-analysis of the deposited data

How the results depend on the processing

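The median log2 fold change of the 10 genes stayed between -0.51 and -0.56 with DESeq2, its size factors, other count filters, a robust fit and the replicate block. It was -0.89 with the pan-neuronal score and -1.39 with the choroid plexus score in the fit, and ran from -0.87 to 0.061 with mice left out, singly or by shared number. Members called lower numbered 0, but 1 (Rgs16) with either score, and past an adjusted p of 0.05 alone 1 with DESeq2 and with either score. At an unadjusted p under 0.05 there was 1 gene, but 3 with DESeq2, 2 without a filter, 9 with the choroid score, 8 with the pan-neuronal score and 0 to 7 with mice left out. Members without overlap numbered 0, and 0 to 7 with mice left out. Without RC replicate 2, where both counts were 7, 5.55% of the tested genes were lower at an unadjusted p under 0.05. In that fit 12.7% were lower without overlap. For DESeq2, no filter and either score, the share of all tested genes at an unadjusted p under 0.05 was not taken. Those counts are therefore not read as a result about the 10 genes. Over all tested genes 11 were called, against 179 with DESeq2, 43 without a filter, 22 with the replicate block, 1 with the choroid score, 20 with the pan-neuronal score and 0 to 30 with mice left out.

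The replicate block moved Slc17a6 to 0.027 and changed no call of the 10 genes. With mice left out, log2 fold changes that turned sign ran from -0.83 to 0.090 for Tcf7l2, -1.01 to 0.17 for Prkcd, -0.92 to 0.0048 for Gbx2, -0.83 to 0.075 for Rora, -1.06 to 0.032 for Lef1, -1.13 to 0.048 for Synpo2, -0.76 to 0.087 for Ntng1, -0.35 to 0.35 for Slc17a6, -0.58 to 0.25 for Myh11, a smooth muscle gene, -0.021 to 0.19 for Rbfox3 and -0.061 to 0.0053 for Ctnnb1. The first 7 turned only where both mice numbered 3 were left out. The choroid score turned the neuronal gene Tubb3 to -0.038 and the oligodendrocyte gene Cnp to 0.025. Neurod1 lost its call with the choroid score (3.76, edgeR adjusted p = 0.0891) and without both mice numbered 1 (3.75, 0.0754). The causes of these shifts were not tested. With 3 mice a group, a p that misses the threshold does not show that levels were alike.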

Other observations

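The genes whose log2 CPM was most like the score of the 10 thalamic genes over the 6 mice, among genes with a mean log2 CPM of at least 3, were Pakap (ENSMUSG00000089945, 1 of 3 entries with that symbol, Pearson r = 0.997), Rorb (0.9965), Tmem169 (0.9961), Kcnj3 (0.9959) and Slc6a7 (0.9932). Kcnj3 encodes a G protein-gated potassium channel subunit and Slc6a7 a proline transporter. In 40 genes r exceeded 0.95. These genes were selected for their likeness out of all such genes over 6 mice, so r is a description.

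Gene by gene, the nearest profile was that of Stmn1 for Tcf7l2 (r = 0.9898), Rap1gds1 for Lef1 (0.9912), Gabbr2 for Gbx2 (0.998), Rorb for Rora (0.9951), Aarsd1 for Prkcd (0.9944), Ddhd1 for Rgs16 (0.9962), Azin1 for Ntng1 (0.9903) and Sema5a for Slc17a6 (0.9988). Ptpn3, a tyrosine phosphatase, was nearest to both Plekhg1 (0.9934) and Synpo2 (0.9986). It had 93.7, 69.7 and 154 CPM in RC, against 80.4, 87.5 and 46.0 in RN, which put RC replicate 3 highest and RN replicate 3 lowest. Pearson's r takes no account of how far a gene varies. RC replicate 3 had 1.37 times the level of RN replicate 3 for Rap1gds1, against 3.78 for Lef1. The same ratio was 1.19 for Ddhd1 against 3.19 for Rgs16. Rorb (3.03 against 3.18 for Rora) and Ptpn3 (3.35 against 4.06 for Synpo2) came closest in this ratio.

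Genes of the reticular nucleus and prethalamus had a median log2 fold change of 0.42, with 2 of 13 higher and 1 lower at an unadjusted p under 0.05 and 0 past an adjusted p of 0.05 in edgeR. Dlx1, a homeobox factor of inhibitory neurons, had 11.3, 14.4 and 7.27 CPM in RC, against 22.8, 15.8 and 31.99 in RN (log2 fold change 1.10, edgeR adjusted p = 0.203, DESeq2 adjusted p = 0.0120). Gad2, a GABA-synthesizing enzyme, stood at 0.50 (edgeR adjusted p = 0.293) and Pvalb, a calcium-binding protein of reticular neurons, at -0.65 (0.318).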
